A study of Zea mays with 6 samples.

Results

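Glutathione S-transferases are described here in the early maize ear, as 83 of the 42508 genes in the deposited count table. A gene was taken as a member where its best Swiss-Prot match carries the words glutathione S-transferase or glutathione transferase. Immature ears of 2 nearly isogenic recombinant inbred lines from a cross of maize with teosinte (Zea mays ssp. parviglumis), its wild ancestor, were compared by sequencing of polyadenylated RNA. Line A12 has the teosinte allele of qKRN5.04b, a locus for kernel row number on chromosome 5, and line B46 has the maize allele at that locus. Both lines share the rest of the design: standard growth, 6 to 9 leaves, ear primordia 1.5 to 2.0 mm long from the inflorescence meristem to the spikelet pair meristem stage, a single batch as labelled, and 3 libraries a line, each from at least 50 pooled plants. The lines stand for a whole introgressed segment and not for a single gene. Libraries held 14625831 to 15675012 counted reads. The gene matched to maize knotted-1, a regulator of meristems, was present in all of them, at 42.0, 79.8 and 66.1 FPKM in A12, against 81.1, 76.5 and 64.9 FPKM in B46.

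Glutathione S-transferases join the tripeptide glutathione to reactive, often toxic molecules, which marks these for storage in the vacuole, and several members reduce peroxides. The tau and phi classes are the large classes of plants and are known for detoxifying herbicides and for their induction by stress. Smaller classes have set tasks: zeta enzymes take part in tyrosine breakdown, dehydroascorbate reductases (DHAR) restore vitamin C with electrons from glutathione, and theta enzymes act mainly as peroxidases. Glutathione is also the electron donor of glutaredoxins, the class of enzymes that the series title names.

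By the entry name of the matched protein, the 83 genes were 44 tau, 16 phi, 8 theta, 7 DHAR and 4 zeta genes. There were also 2 omega-like genes and 1 gene each of the TCHQD type and the microsomal type. Matches without the tau letter U in their name, such as maize BZ2 and GST 23 and several tobacco proteins, were placed in tau by the rule set here. These names are similarity annotations: 13 genes matched a maize protein, and the most frequent name, rice GSTU6, was carried by 23 genes. A Pfam domain of the family was listed for 64 genes, 45 of them with both the N-terminal and the C-terminal domain, which bind glutathione and the second substrate. Of the 19 genes without one, 7 are tau, 7 theta, 2 DHAR, 2 zeta and 1 is the microsomal-type gene, which has the MAPEG domain instead, that of a separate family of membrane proteins. The phi genes had a median length of 1276 bases and the tau genes of 991 bases, and 12 of the 44 tau genes had a span equal to their length, so no intron in the listed model.

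Most members were silent or nearly so in the ear. No read was counted for 21 of the 83 genes, and 42 had at most 10 reads in every library. The filter on low counts left 39 genes for testing, and no library held more than 18 reads of a gene that it removed. Level per gene length, given as FPKM (counted fragments for each kilobase of a gene, in proportion to the library's total), was concentrated in few genes, since 2 genes held 52.6% to 61.3% of the summed FPKM of all members in a library, and 10 genes held 86.1% to 92.6%.

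The gene of highest mean level over the 6 libraries was Zm00004b028188 (chromosome 8, 179756396 to 179759395), annotated as maize GST 1, the classical phi enzyme that acts on chloroacetanilide herbicides. It had 292, 312 and 301 FPKM in A12 libraries, against 374, 366 and 399 FPKM in B46 libraries. The next was Zm00004b030587 (chromosome 6, 147758908 to 147760414), annotated as maize GST 23, a tau enzyme linked to disease resistance in maize, with 320, 390 and 413 FPKM in A12, against 195, 220 and 307 FPKM in B46. The lines did not overlap in either gene, A12 being lower in the first and higher in the second. Neither passed the test across all genes: the log2 fold change of the GST 1 gene was -0.33 (SE 0.09; adjusted p = 0.060, edgeR) and that of the GST 23 gene 0.64 (SE 0.19; adjusted p = 0.075, edgeR). Both passed without A12 replicate 1 (edgeR adjusted p = 0.0348 and 0.0266), and the GST 23 gene also without B46 replicate 3 (0.0311). DESeq2 called both, with adjusted p-values of 0.00466 and 0.0110. Log2 fold changes are A12 minus B46 throughout, and a gene is called at an edgeR adjusted p under 0.05. The ears were bulk samples, so fewer cells of a type and less RNA per cell cannot be told apart.

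Behind these followed the DHAR gene Zm00004b026811, with 102, 82.2 and 95.1 FPKM in A12, against 89.1, 98.1 and 98.3 FPKM in B46, and the phi gene Zm00004b017896, annotated as maize GST 3. A further DHAR gene, Zm00004b028708, had 64.0 ± 7.94 FPKM in A12 and 56.6 ± 2.58 FPKM in B46 (SD, n = 3 each). The levels of both DHAR genes overlapped between lines, and neither was called (edgeR adjusted p = 0.875 and 0.356). The neighbours Zm00004b026811 and Zm00004b017896 in this order differed by line, since the phi gene had the higher mean in A12 (102 FPKM) and the lower mean in B46 (68.8 FPKM).

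Summed over all members, the level was 1163, 1144 and 1198 FPKM in A12, against 1001, 1024 and 1170 FPKM in B46. The ranges overlapped in FPKM, with B46 replicate 3 inside that of A12. In CPM (counts relative to library size) after TMM scaling they lay just apart, at 1747 to 1815 in A12 and 1527 to 1745 in B46. In CPM on raw totals they overlapped, so the overlap of the sums depends on the unit. Within the sum, the phi genes other than GST 1 stood at 196, 180 and 186 FPKM in A12, against 117, 119 and 123 FPKM in B46, without overlap. The sum of all phi genes was 489 ± 2.28 FPKM in A12 and 499 ± 19.8 FPKM in B46 (SD, n = 3 each), with overlap. The tau sum was 473 ± 27.6 FPKM in A12 and 348 ± 72.6 FPKM in B46, and without the GST 23 gene it was 99.1 ± 39.6 FPKM in A12 and 108 ± 13.8 FPKM in B46 (SD, n = 3 each). These sums are descriptions over members and carry no test.

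**Figure D1:**
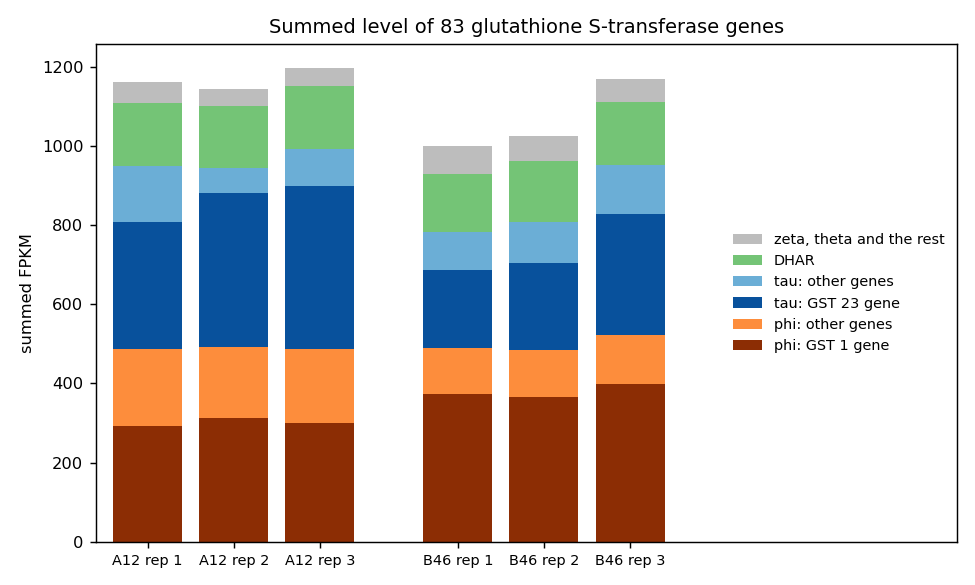
Summed FPKM of the 83 glutathione S-transferase genes in each of the 3 A12 and 3 B46 libraries, as bars from 0 stacked by class, with the GST 1 gene and the GST 23 gene shown apart. The bars reach 1144 to 1198 FPKM in A12 and 1001 to 1170 FPKM in B46, and the GST 1 and GST 23 genes fill more than any other block.

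The comparison of A12 with B46 asks which members differ between ears with teosinte and maize DNA at the locus. Of the 39 tested genes, 7 were called, 4 higher and 3 lower in A12, or 17.9%, where 9.86% of all 22741 genes tested were called (4.61% higher and 5.25% lower). All 7 had values without overlap between lines, as did 21 of the 39 tested members, or 53.8%, against 33.4% of all genes tested. The median log2 fold change of the tested members was 0.06, with 22 positive and 17 negative values, and that of all genes tested was 0.01; without A12 replicate 1 the members' median was -0.22. At an unadjusted p under 0.05 there were 15 members of the 39, where 27.2% of all genes tested passed that limit. Of 34 tested members with a listed Pfam domain of the family, 5 were called, or 14.7%. Of the 5 tested members without one, 2 were called, or 40%. Single libraries moved the count of 7: it was 10 without A12 replicate 1, 2 without A12 replicate 3, 3 without B46 replicate 1 and 2 without B46 replicate 2. The count over all genes moved too. In the same order these fits called 4446, 401, 714 and 432 genes in all, where 2242 were called with every library.

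**Figure D2:**
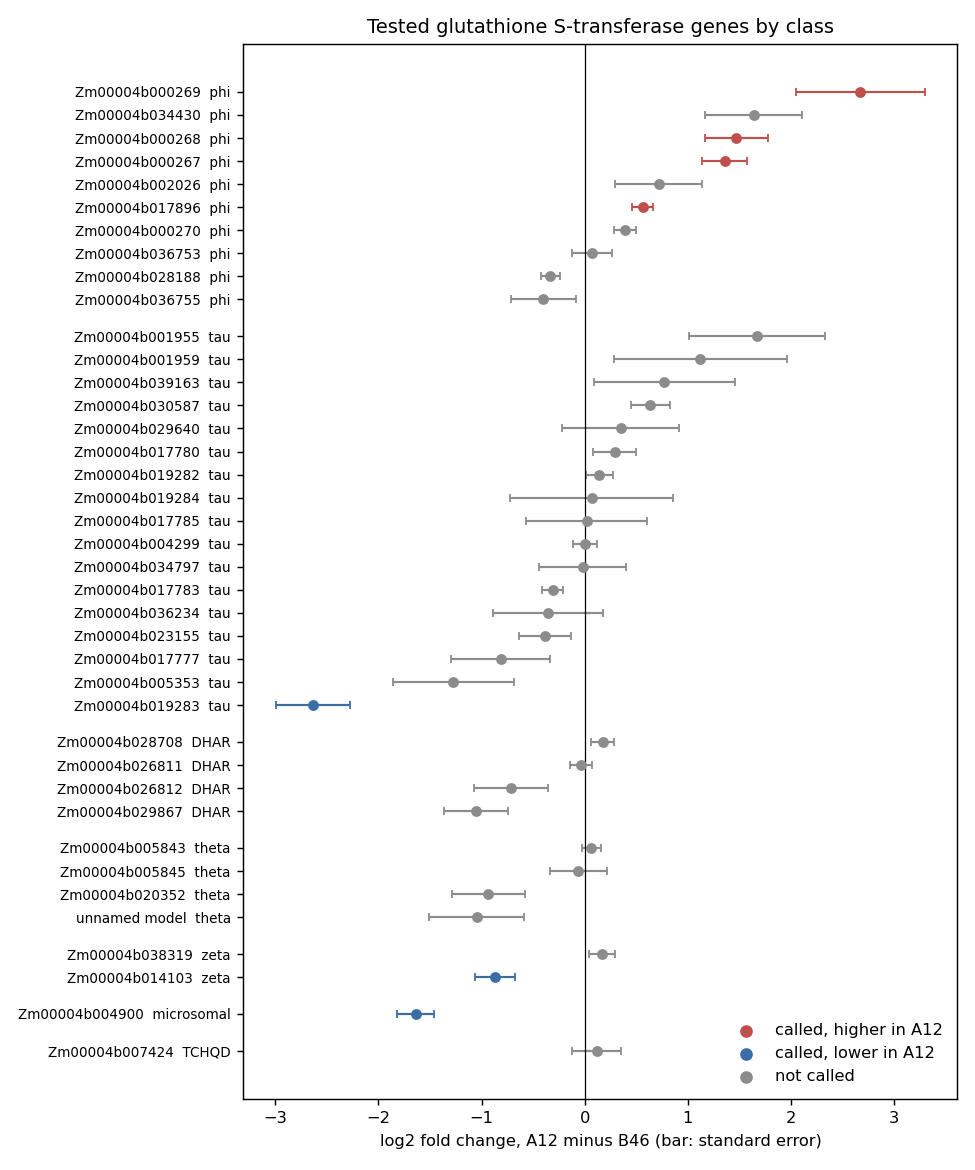
Log2 fold change, A12 minus B46, of the 39 tested genes, grouped by class, with the standard error as a bar and called genes in colour. The 4 called phi genes lie right of 0, and the called tau, zeta and microsomal-type genes lie left of it, at -2.64, -0.87 and -1.64.

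All 4 genes that rose were phi genes. Of 10 tested phi genes, 4 rose, 0 fell and 6 were not called, or 40% called, where 9.86% of all genes were. At an unadjusted p under 0.05 there were 7 phi genes, of which 6 were higher in A12. DESeq2 called 7 phi genes, of 3488 genes called in all, and limma on FPKM called 3, of 1975 in all. The median log2 fold change of the phi genes was 0.64, with 8 positive and 2 negative values. Without A12 replicate 3 or without B46 replicate 2, edgeR called 0 phi genes, with 7 at an unadjusted p under 0.05 in each case. Without B46 replicate 1 it called 1. Over all genes these fits called only 401, 432 and 714, so few calls in a small class say little about that class.

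Zm00004b017896 (chromosome 3, 159217522 to 159219950), annotated as maize GST 3, an enzyme that detoxifies herbicides, had 3462, 2754 and 3253 reads in A12, against 2193, 2333 and 2175 reads in B46. Every A12 library lay above every B46 library, and the B46 libraries lay close together. Its level was 102 ± 10.9 FPKM in A12 and 68.8 ± 2.02 FPKM in B46 (SD, n = 3 each), and it rose by 0.56 on the log2 scale (SE 0.10; adjusted p = 0.018, edgeR). The call was lost without A12 replicate 3 (edgeR adjusted p = 0.0876), B46 replicate 1 (0.0831), B46 replicate 2 (0.0943) or B46 replicate 3 (0.0542).

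The other 3 are neighbours. On chromosome 1, from 8151136 to 8193028, 4 phi genes lie in a row of 41.9 kb on the minus strand, annotated as F11, F11, F10 and F11 of Arabidopsis; in that species F11 is linked to glucosinolate synthesis. All 4 had positive log2 fold changes, no overlap between lines, and the first 3 were called. Zm00004b000267 had 514, 496 and 486 reads in A12, against 151, 180 and 279 reads in B46, and rose by 1.36 (SE 0.22; adjusted p = 0.012, edgeR). Zm00004b000268 had 140, 148 and 190 reads in A12, against 39, 52 and 89 reads in B46, and rose by 1.47 (SE 0.31; adjusted p = 0.028, edgeR). In both, B46 replicate 3 was the highest library of its line and came nearest to A12.

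Zm00004b000269 had few reads, with 29, 10 and 18 reads in A12, against 4, 4 and 1 reads in B46, and rose by 2.67 (SE 0.63; adjusted p = 0.040, edgeR). The last gene of the row, Zm00004b000270, was the highest of the 4 and differed least, at 38.7 ± 1.47 FPKM in A12 and 29.5 ± 3.09 FPKM in B46 (SD, n = 3 each; log2 fold change 0.39, SE 0.11; adjusted p = 0.062, edgeR; 0.0475 without A12 replicate 1). Its pattern over B46 libraries was the opposite of the first pair, since B46 replicate 3 was the lowest library there, at 26.4 FPKM. Such neighbouring copies can share reads, and the sources used here do not give how reads that match several genes were counted.

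The calls in this row changed with the tool and with single libraries. Limma on FPKM, over all libraries, did not call Zm00004b000269, with adjusted p-values of 0.0614 and 0.0729 at a pseudocount of 0.1 and of 1, and 0.0523 at 0.1 without its filter; it called the other pair in each. Without A12 replicate 3, edgeR gave adjusted p-values of 0.0586, 0.122 and 0.131 for Zm00004b000267, Zm00004b000268 and Zm00004b000269, and without B46 replicate 2 it gave 0.0742, 0.133 and 0.143. Without B46 replicate 1, the values of Zm00004b000268 and Zm00004b000269 were 0.0808 and 0.115, and Zm00004b000269 was also lost without A12 replicate 1 (0.0537) or B46 replicate 3 (0.0922). The direction held for all 3 in each of the 14 alternative fits. Within 1 Mb on either side of Zm00004b000268, 45 genes outside the glutathione S-transferases were tested, of which 6 rose and 0 fell, or 13.3% called, where 9.86% of all genes were.

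**Figure D3:**
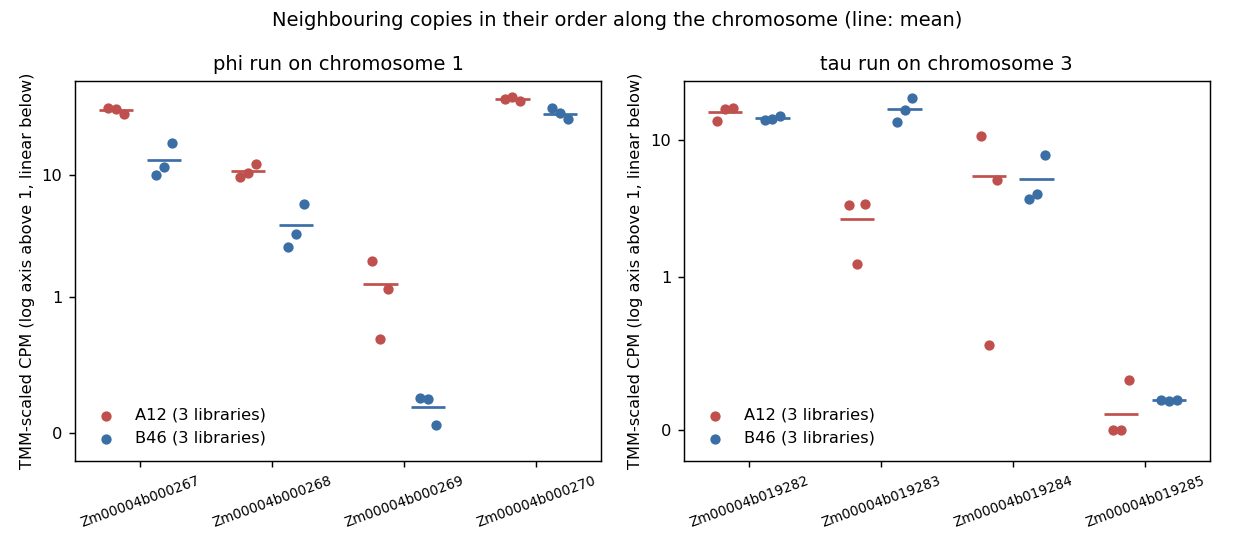
TMM-scaled CPM in each library for 2 rows of neighbouring genes in chromosome order: 4 phi genes on chromosome 1 and 4 tau genes on chromosome 3; short lines are means, and the axis is logarithmic above 1. In the phi row A12 lies above B46 at each gene, and in the tau row the second gene lies lower in A12 while its neighbours overlap.

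Among the phi genes that were not called, Zm00004b034430 (chromosome 9), annotated as F11, had 27, 54 and 60 reads in A12, against 9, 13 and 25 reads in B46. The lines lay just apart, with a log2 fold change of 1.64 (SE 0.47; adjusted p = 0.071, edgeR; 0.0223 without A12 replicate 1). The 3 genes annotated as maize GST 4, a phi enzyme induced by herbicide safeners, had at most 6 reads in any library and were not tested.

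Of 17 tested tau genes, 0 rose, 1 fell and 16 were not called, or 5.88% called, where 9.86% of all genes were, with a median log2 fold change of 0.02 and 10 positive and 7 negative values. At an unadjusted p under 0.05 there were 4, DESeq2 called 2 and limma on FPKM called 1. The count was 2 without A12 replicate 1 or A12 replicate 2, and 3 without B46 replicate 3. Over all genes these fits called 4446, 2190 and 1410.

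The gene that fell was Zm00004b019283 (chromosome 3, 214754134 to 214755177), annotated as rice GSTU6. It had 49, 18 and 53 reads in A12, against 205, 258 and 314 reads in B46, so every A12 library was far below the lowest B46 library. Its level was 2.84 ± 1.31 FPKM in A12 and 17.8 ± 3.65 FPKM in B46 (SD, n = 3 each), and it fell by 2.64 (SE 0.36; adjusted p = 0.0072, edgeR). Each of the 14 alternative fits called it, with adjusted p-values from 5.19e-11 to 0.046.

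Zm00004b019283 is the second of 4 tau genes on the plus strand within 75.9 kb, all annotated as GSTU6. Zm00004b019282, before it, had 200, 241 and 264 reads in A12, against 213, 222 and 232 reads in B46 (log2 fold change 0.14, SE 0.13; adjusted p = 0.54, edgeR). Zm00004b019284, after it, had 156, 8 and 79 reads in A12, against 57, 63 and 121 reads in B46 (log2 fold change 0.07, SE 0.79; adjusted p = 0.97, edgeR). Both overlapped between lines, and the last gene, Zm00004b019285, had at most 5 reads in a library. Within 1 Mb on either side of Zm00004b019283, 2 of 30 other tested genes were called, both higher in A12. That is 6.67%, where 9.86% of all genes were called.

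Of the tau genes that were not called, Zm00004b017783 (chromosome 3), matched to a soybean enzyme, had 24.9, 22.6 and 24.1 FPKM in A12, against 27.6, 31.3 and 29.7 FPKM in B46, without overlap (log2 fold change -0.31, SE 0.10; adjusted p = 0.097, edgeR). Zm00004b001955 (chromosome 1), annotated as GSTU6, had 18, 37 and 25 reads in A12, against 17, 7 and 2 reads in B46. Its lines lay just apart too, and the log2 fold change was 1.67 (SE 0.65; adjusted p = 0.15, edgeR). The gene annotated as BZ2, the maize enzyme of the last genetically defined step in purple pigment deposition, Zm00004b004299, had 245, 218 and 232 reads in A12, against 247, 254 and 223 reads in B46 (log2 fold change 0.00, SE 0.12; adjusted p = 0.98, edgeR). Its listed model is 3756 bases long over a span of 15763 bases, against a median length of 991 bases in tau genes, with the N-terminal domain only. It overlaps another BZ2-like model on the opposite strand, for which no read was counted. The strand setting is not given, nor which part of the long model its reads came from.

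**Figure D4:**
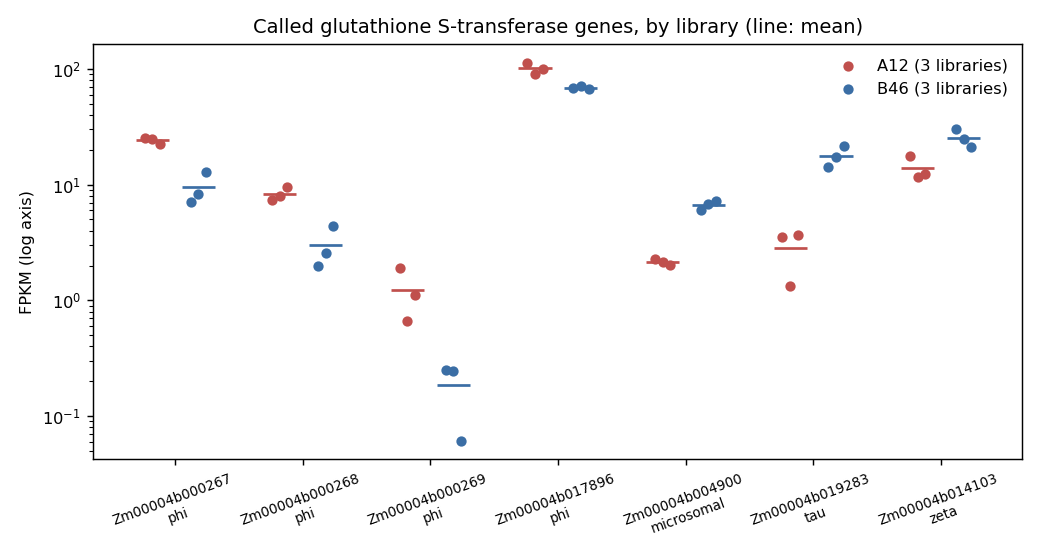
FPKM by library, on a logarithmic axis, of the 7 called genes, with A12 left of B46 and lines for the means. No A12 library overlaps a B46 library in any of the 7, and the means run from 0.184 FPKM (Zm00004b000269 in B46) to 102 FPKM (Zm00004b017896 in A12).

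The remaining classes held 2 further falls. The microsomal-type gene Zm00004b004900 (chromosome 1, 274071554 to 274074739) matches a bovine enzyme; in mammals such membrane enzymes reduce lipid peroxides and take part in making leukotrienes. It had 46, 42 and 43 reads in A12, against 127, 147 and 154 reads in B46, tight within each line and far apart between them. Its level was 2.15 ± 0.136 FPKM in A12 and 6.71 ± 0.603 FPKM in B46 (SD, n = 3 each), and it fell by 1.64 (SE 0.18; adjusted p = 0.0037, edgeR). Each of the 14 alternative fits called it, with adjusted p-values from 1.89e-08 to 0.0328. Of 23 other genes tested within 1 Mb on either side, 3 fell and 0 rose, or 13% called, where 9.86% of all genes were.

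The zeta gene Zm00004b014103 is the only tested member on chromosome 5, from 178068397 to 178072569. It is annotated as Arabidopsis Z1, an isomerase of tyrosine breakdown, and has no listed Pfam domain of the family. It had 295, 193 and 221 reads in A12, against 531, 445 and 379 reads in B46, without overlap. It was at 13.9 ± 3.21 FPKM in A12 and 25.4 ± 4.52 FPKM in B46 (SD, n = 3 each), and it fell by 0.87 (SE 0.20; adjusted p = 0.036, edgeR). Within 1 Mb on either side, 10 of 38 other tested genes fell and 1 rose, or 28.9% called, where 9.86% of all genes were. The call was lost without A12 replicate 2 (edgeR adjusted p = 0.0689), A12 replicate 3 (0.149), B46 replicate 1 (0.122) or B46 replicate 2 (0.13).

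The other 4 members on chromosome 5 were at or near 0. Zm00004b015249, a tau gene at 215019169 to 215020230, had 0 reads in all A12 libraries and 6, 1 and 0 reads in B46. Zm00004b011604, a tau gene, had 1 read in A12 and 0 in B46, and no read was counted for Zm00004b015290 and Zm00004b011167. Counts this low allow no comparison. The other tested zeta gene, Zm00004b038319 on chromosome 10, had 9.55, 8.41 and 9.10 FPKM in A12, against 8.37, 8.20 and 7.47 FPKM in B46, and was not called (log2 fold change 0.17, SE 0.12; adjusted p = 0.42, edgeR).

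Of 4 tested DHAR genes, edgeR, DESeq2 and limma on FPKM called 0, with 1 at an unadjusted p under 0.05. That DHAR gene, Zm00004b029867 (chromosome 6), annotated as the chloroplast form, had 28, 20 and 36 reads in A12, against 62, 74 and 46 reads in B46, without overlap (log2 fold change -1.05, SE 0.31; adjusted p = 0.073, edgeR). Of 4 tested theta genes, all 3 tools called 0 as well, with 1 at an unadjusted p under 0.05. That theta gene, Zm00004b020352 (chromosome 4), had 12, 8 and 15 reads in A12, against 20, 28 and 22 reads in B46, without overlap (log2 fold change -0.93, SE 0.36; adjusted p = 0.14, edgeR). An unnamed theta transcript model on chromosome 2 had 12 reads in each A12 library, against 40, 25 and 13 reads in B46 (log2 fold change -1.05, SE 0.46; adjusted p = 0.19, edgeR). The theta genes Zm00004b005843 and Zm00004b005845 on chromosome 1 overlap in part on opposite strands, and as the strand setting is not given, reads from the shared stretch may be counted to either; neither was called.

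In their positions, 37 of the 83 members had another member within 100 kb, in 10 groups of 2 to 8 genes, and each group held a single class. Tau genes made up 25 of the 37 and phi genes 8. Of the 21 tested genes in such groups 4 were called, or 19%, and of the 18 tested genes outside them 3, or 16.7%. Over all genes tested the share was 9.86%. The group of 8 tau genes on chromosome 1, from 82781770 to 83146412, had 2 tested members, and the 4 tau genes on chromosome 9 between 161905017 and 161922185 had 0.

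The spread within a line was uneven. Over the 39 tested genes, the median coefficient of variation of CPM (counts relative to library size, after TMM scaling) was 14.5% in A12 and 20.4% in B46, and it exceeded 80% in 3 genes in A12 and 1 in B46. The 3 were GSTU6-like tau genes, singled out here after their values were seen. Zm00004b001959 had 25.2, 1.04 and 9.21 CPM in A12, against 4.71, 5.48 and 6.07 CPM in B46. Zm00004b039163 (chromosome 10) had 28.6, 2.85 and 9.73 CPM in A12, against 7.46, 6.76 and 9.88 CPM in B46. Zm00004b019284, in the row described above, had 10.6, 0.557 and 5.13 CPM in A12, against 3.73, 4.02 and 7.82 CPM in B46.

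In all 3, A12 replicate 1 was highest and A12 replicate 2 lowest, with the B46 libraries between them. The summed CPM of 53 photosynthesis genes, which mark green tissue, was ordered alike, at 603, 113 and 243 CPM in A12, against 148, 172 and 236 CPM in B46. Of the 33 tested photosynthesis genes 1 was called, higher in A12, or 3.03%, where 9.86% of all genes were. No read was counted for 9 of the 53. Leaving out A12 replicate 2 raised the count of called photosynthesis genes to 8, and leaving out A12 replicate 1 to 2. Over all genes these fits called 2190 and 4446. By edgeR the photosynthesis count was 0 without A12 replicate 3 or without any 1 B46 library, with 2 to 6 at an unadjusted p under 0.05. Those fits called 401 to 1410 of all genes. Over all libraries DESeq2 called 5 photosynthesis genes and limma on FPKM 1. In A12 replicate 1, the library with the highest photosynthesis sum, knotted-1 had its lowest level. The part of photosynthetic tissue in the levels of these tau genes was not tested. None of the 3 was called by edgeR over all libraries, and Zm00004b001959 was called without A12 replicate 2.

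**Figure D5:**
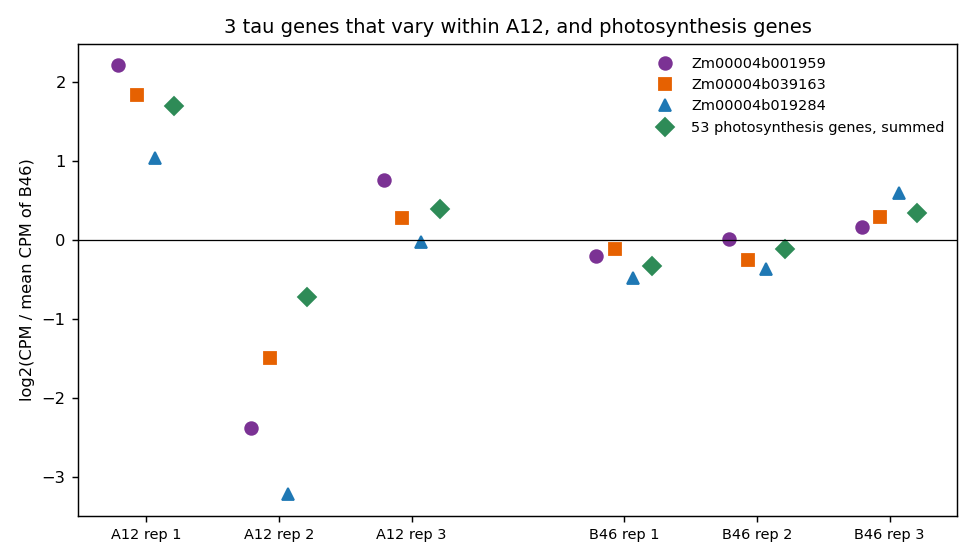
Log2 ratio of each library to the mean CPM of B46, for 3 tau genes and for the summed CPM of 53 photosynthesis genes. In A12 all 4 series are highest in replicate 1 and lowest in replicate 2, and every B46 library lies between these.

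Heat shock proteins and heat stress factors, taken as signs of stress or handling because glutathione S-transferases are known to respond to stress, summed to 2613, 2971 and 2784 CPM in A12, against 3194, 3190 and 3719 CPM in B46 over 95 genes. The lines did not overlap, and B46 replicate 3 was highest. Of 52 tested genes of this list, 3 rose and 3 fell, or 11.5% called, where 9.86% of all genes were. No read was counted for 16 of the 95. MADS-box genes, markers of floral tissue, summed to 2473, 1882 and 2100 CPM in A12, against 1827, 1760 and 1543 CPM in B46 over 66 genes, 14 of them without a read. Of 41 tested, 16 rose and 5 fell, or 51.2% called, where 9.86% of all genes were. The part of stress or of floral tissue in the glutathione S-transferase calls was not tested.

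The glutathione supply and use list held genes for synthesis, recycling and breakdown, peroxide removal, the glyoxalase path and ABC transporters of the C family. The transporters were taken by family name, and what each carries was not tested. Of the 43 tested genes of the list, 1 rose and 2 fell, or 6.98% called, where 9.86% of all genes were. The median log2 fold change of the list was -0.01. By edgeR, 0 of 4 synthesis genes, 0 of 6 glutathione peroxidases and 0 of 11 glyoxalase and formaldehyde genes were called, with 1, 1 and 0 at an unadjusted p under 0.05; DESeq2 and limma on FPKM called 0 in each. The count of 3 was 8 without A12 replicate 1, and 1 without A12 replicate 3, B46 replicate 1 or B46 replicate 2. Over all genes these fits called 4446, 401, 714 and 432.

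Both falls were outside synthesis. Zm00004b039235 (chromosome 10), annotated as the Arabidopsis transporter ABCC4, had 62, 50 and 57 reads in A12, against 207, 176 and 168 reads in B46, without overlap, and fell by 1.64 (SE 0.18; adjusted p = 0.0035, edgeR). Each of the 14 alternative fits called it. Zm00004b007275 (chromosome 2), annotated as glutathione hydrolase 2, which breaks down glutathione, had 294, 574 and 525 reads in A12, against 1182, 1128 and 999 reads in B46, and fell by 1.18 (SE 0.23; adjusted p = 0.023, edgeR). The transporter gene Zm00004b024996 (chromosome 8), annotated as ABCC3, which carries glutathione conjugates in Arabidopsis, had 431, 432 and 418 reads in A12, against 305, 343 and 334 reads in B46, and rose by 0.45 (SE 0.10; adjusted p = 0.036, edgeR). The calls of Zm00004b007275 and Zm00004b024996 were lost without A12 replicate 3 (edgeR adjusted p = 0.0934 and 0.104) and without any 1 of the B46 libraries (highest 0.103 and 0.141), and that of Zm00004b024996 also without A12 replicate 2 (0.0774). Over all libraries limma on FPKM called 2 genes of the list and not Zm00004b024996, with adjusted p-values of 0.09 to 0.14 over its 3 settings.

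The gene of highest mean FPKM in the list, Zm00004b013785 on chromosome 5, annotated as gamma-glutamylcyclotransferase 2-2, which degrades glutathione in the cytosol, had 13539, 7061 and 9306 reads in A12, against 15943, 15797 and 15182 reads in B46. The lines did not overlap, yet A12 varied widely and the gene was not called (log2 fold change -0.59, SE 0.22; adjusted p = 0.14, edgeR; 0.0028 without A12 replicate 1). Zm00004b026747, the synthesis gene of highest mean FPKM, annotated as glutamate-cysteine ligase B, overlapped between lines at 104 ± 31.7 CPM in A12 and 117 ± 6.47 CPM in B46 (SD, n = 3 each; edgeR adjusted p = 0.66).

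Vitamin C recycling was represented by 5 tested monodehydroascorbate reductases. Of these 1 rose and 4 were not called, or 20% called, where 9.86% of all genes were. Zm00004b021210 (chromosome 4), annotated as the cytosolic form 4, had 517, 128 and 224 reads in A12, against 31, 36 and 56 reads in B46, and rose by 2.88 (SE 0.53; adjusted p = 0.019, edgeR). Its A12 libraries followed the order of the 3 variable tau genes, with replicate 1 highest and replicate 2 lowest. The call was lost without A12 replicate 3 (edgeR adjusted p = 0.0646), B46 replicate 1 (0.0825) or B46 replicate 2 (0.103).

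Genes with the fold of these enzymes but another Swiss-Prot name numbered 22. Of the 13 tested, 2 rose and 1 fell, or 23.1% called, where 9.86% of all genes were. Zm00004b033910 (chromosome 9), annotated as IN2-1 homolog B of the lambda class, known in maize for induction by herbicide safeners, had 203, 144 and 181 reads in A12, against 67, 72 and 23 reads in B46, and rose by 1.76 (SE 0.39; adjusted p = 0.033, edgeR). The gene annotated as metaxin, a protein of mitochondrial import, Zm00004b031810, rose by 0.45 (SE 0.11; adjusted p = 0.044, edgeR), and Zm00004b003478, without a Swiss-Prot match, fell by 0.58 (SE 0.11; adjusted p = 0.018, edgeR). Without A12 replicate 3, B46 replicate 1 or B46 replicate 2, edgeR called 0 of the list, with 7 at an unadjusted p under 0.05 in each. Over all genes these fits called 401, 714 and 432. The count of the list was 5 without A12 replicate 1 and 1 without B46 replicate 3, where 4446 and 1410 of all genes were called. The metaxin gene was also lost without A12 replicate 2 (edgeR adjusted p = 0.0906), and limma on FPKM without its filter did not call it (0.0535) or Zm00004b033910 (0.0503). Elongation factor 1-gamma 1 (Zm00004b029644), the highest of the list by mean FPKM, was not called, at 505 ± 24.5 CPM in A12 and 452 ± 30.6 CPM in B46 (SD, n = 3 each; edgeR adjusted p = 0.33).

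Anthocyanin genes, the pathway that BZ2 serves, held 1 rise and 1 fall among 12 tested, or 16.7% called, where 9.86% of all genes were. The rise and the fall were called in all 14 alternative fits. The median log2 fold change of the 12 was 0.41, with 10 positive and 2 negative values. Zm00004b005589 (chromosome 1), annotated as chalcone-flavanone isomerase, an early enzyme of the pathway, had 576, 487 and 586 reads in A12, against 105, 105 and 184 reads in B46, and rose by 2.13 (SE 0.23; adjusted p = 0.0035, edgeR). Zm00004b006646 (chromosome 2), annotated as the anthocyanin regulatory R-S protein, a transcription factor that switches on pigment genes, had 37, 28 and 39 reads in A12, against 203, 232 and 308 reads in B46, and fell by 2.77 (SE 0.22; adjusted p = 0.0012, edgeR). The regulator and the enzyme lay apart in opposite directions, while the BZ2-like gene overlapped between lines.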

How the data were processed

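RNA from immature ears was measured in 6 libraries, 3 each of A12 and B46, given in the series' design text as biological replicates, each a pool of plants grown independently; p-values measure the spread between such pools. Raw read counts and FPKM of each gene were deposited by the authors, per the file headers, in a table of 42508 genes with positions, lengths, Swiss-Prot matches and Pfam domains. Alignment used HISAT2 2.0.5, and DESeq2 1.20.0 is named too, per the submitters' processing notes. For the counter, its strand setting, the genome build and the treatment of reads with several matches: not given in the sources used here. The FPKM deposited by the authors scale to the table's own totals within a factor of 0.962 to 1.02. Positions are those of the deposited table.

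Counts were tested with edgeR 4.0.16 (quasi-likelihood F-test, TMM normalization, filterByExpr) in R 4.3.3 over 22741 genes, with Benjamini-Hochberg adjustment over all of them and a threshold of 0.05. The standard error of a log2 fold change is its size over the square root of F. CPM use TMM-scaled totals unless raw totals are named. Overlap of lines was judged on CPM for single genes, and for sums in the unit given. Alternatives were DESeq2 size factors, other filters, DESeq2 1.42.0, limma 3.58.1 on log2(FPKM + 0.1) or log2(FPKM + 1) with and without a mean FPKM filter of 0.5, the replicate block and leaving out each library, 14 fits in all. The fit was tested on simulated data.

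Members and lists were chosen with earlier results of these data known. Lists were matched on phrases of the Swiss-Prot name at the start of a word, so that monodehydroascorbate reductases form a list of their own. Named were all called members, the 10 of highest mean FPKM, members without overlap of lines and a log2 change of at least 1 a mean of 10 or more reads in the higher line, members on chromosome 5, and up to 4 called genes a list; genes in rows beside these, the pigment enzyme, GST 4, the other zeta and theta genes set beside named ones and the variable tau genes were added after their values were seen. Of the member identifiers, 0 were found in the RefSeq table of maize genes, and no sequence is printed. The precision at low counts is limited: intervals here cover the spread between libraries, not the sharing of reads between copies.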

Additional observations from a re-analysis of the deposited data

How the results depend on the processing

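Direction held for every called gene named in the text in each of the 14 alternative fits, while uncalled genes with changes near 0 (Zm00004b026747 and Zm00004b026811) changed sign without 1 A12 library, to 0.06 and 0.05. Of the values of named genes, 407 stayed on their side of the threshold, 58 lost the call and 11 gained it. DESeq2 called 3488 genes in all, 11 members (7 higher in A12), 7 phi, 2 tau, 7 supply and use genes, 6 genes of the same fold and 5 photosynthesis genes. With the replicate block, 967 genes in all were called by edgeR, 5 members (2 higher in A12), 2 phi genes, 1 supply and use gene and 0 genes of the same fold (7 at an unadjusted p under 0.05; DESeq2 without the block called 6, limma on FPKM 3). The members not called with the block were Zm00004b000269 (adjusted p = 0.0824) and Zm00004b017896 (0.0598), and of the supply and use genes Zm00004b007275 (0.0531) and Zm00004b024996 (0.0961). Libraries of the same number had deviations correlated at -0.120, -0.014 and 0.005, so the numbers give no pairing. Leaving out 1 library gave 401 (without A12 replicate 3) to 4446 (without A12 replicate 1) called genes in all, 2 to 10 members, 0 to 6 higher and 2 to 4 lower, 0 to 6 phi, 1 to 3 tau, 1 to 8 supply and use genes, 0 to 5 of the same fold and 0 to 8 photosynthesis genes. The 2 anthocyanin calls held in all 14. Choosing members by Pfam domain gave 8 calls. The median log2 fold change of members ran from -0.215 without A12 replicate 1 to 0.120 without B46 replicate 1. The ratio of summed CPM, A12 over B46, was 1.10 on TMM-scaled totals, 1.064 on raw totals and 1.097 for FPKM. The cause of these shifts was not tested. The 44 untested genes had too few reads for a comparison.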
